A study of Mus musculus with 6 samples.

Results

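H3K4me3 ChIP-Seq peak lists were compared directly between 2 of the 6 conditions of the series, cyproheptadine and loxapine, a pair that the study's metabolite profiles had placed in the same group of compounds. Both lists came from STHdhQ111 cells, a conditionally immortalised line of mouse striatal progenitors that is homozygous for a knocked-in expansion of the glutamine codons of Huntingtin, and both cultures were held for 24 hours in serum-free DMEM with 10 uM of one compound. The pair held 33721 and 45564 of the 227418 peaks of the series. DKI (a diacylglycerol kinase inhibitor) and meclizine, given to the same cells at the same dose and time, were used only beside results of the pair, and the vehicle lists were not used. Each condition had 1 list, so no difference here has a replicate check and no test was made. The line is 1 model line that carries the mutation in every cell, and this comparison holds no wild-type cells.

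Cyproheptadine and loxapine are both tricyclic compounds. Cyproheptadine is a first-generation antihistamine that also blocks serotonin and muscarinic receptors, and has a dibenzocycloheptene ring system joined through a double bond to an N-methylpiperidine. Loxapine is an antipsychotic that blocks dopamine and serotonin receptors, and has a chlorinated dibenzoxazepine ring system that carries an N-methylpiperazine. Trimethylation of lysine 4 of histone H3 marks the nucleosomes around the start sites of active genes. CpG-rich promoters of housekeeping genes hold strong, wide H3K4me3 peaks in nearly every cell type, while many tissue-restricted genes have CpG-poor starts that are marked only where they are active.

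Sequences are shown for 2 loxapine peaks and 4 promoters on which the comparison turned, with each CpG dinucleotide in capitals. All are written 5′ to 3′ on the gene's strand, from GRCm38.p6. The first is the loxapine peak chr4:136836267-136836505 (239 bases, minus strand), 279 bp upstream of the start of Ephb2, a receptor tyrosine kinase for ephrin-B ligands, and the second is the loxapine peak chr3:87970307-87970536 (230 bases, plus strand), 542 bp upstream of Nes, the intermediate filament nestin of neural progenitors. The cyproheptadine list had no peak within 5 kb of either start. The other 4 are the 250 bases before RefSeq starts. Kcnj10 (chr1:172340960-172341209, plus strand) was marked with loxapine only. Stub1 (chr17:25832920-25833169, minus strand) and Bpgm (chr6:34476106-34476355, plus strand) stood higher in the cyproheptadine list, and Zfp746 (chr6:48086594-48086843, minus strand) stood higher in the loxapine list.
Ephb2: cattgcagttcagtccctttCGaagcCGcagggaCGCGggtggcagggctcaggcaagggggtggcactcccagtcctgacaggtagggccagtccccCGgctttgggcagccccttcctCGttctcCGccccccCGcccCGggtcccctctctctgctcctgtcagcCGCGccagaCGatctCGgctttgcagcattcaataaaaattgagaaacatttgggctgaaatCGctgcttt
Nes: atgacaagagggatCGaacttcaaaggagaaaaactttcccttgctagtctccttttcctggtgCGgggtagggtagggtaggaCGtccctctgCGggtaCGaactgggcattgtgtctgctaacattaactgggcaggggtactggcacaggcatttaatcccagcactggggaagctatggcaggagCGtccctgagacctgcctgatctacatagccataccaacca
Kcnj10: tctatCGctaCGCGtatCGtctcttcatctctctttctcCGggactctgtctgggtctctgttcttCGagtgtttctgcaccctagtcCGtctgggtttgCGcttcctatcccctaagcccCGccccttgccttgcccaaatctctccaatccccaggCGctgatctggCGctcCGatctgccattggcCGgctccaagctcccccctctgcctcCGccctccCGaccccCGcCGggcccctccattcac
Stub1: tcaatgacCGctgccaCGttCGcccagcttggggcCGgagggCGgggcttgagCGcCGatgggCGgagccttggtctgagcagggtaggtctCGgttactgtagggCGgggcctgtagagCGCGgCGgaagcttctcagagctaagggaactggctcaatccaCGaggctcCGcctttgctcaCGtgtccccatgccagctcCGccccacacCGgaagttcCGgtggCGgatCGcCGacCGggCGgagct
Bpgm: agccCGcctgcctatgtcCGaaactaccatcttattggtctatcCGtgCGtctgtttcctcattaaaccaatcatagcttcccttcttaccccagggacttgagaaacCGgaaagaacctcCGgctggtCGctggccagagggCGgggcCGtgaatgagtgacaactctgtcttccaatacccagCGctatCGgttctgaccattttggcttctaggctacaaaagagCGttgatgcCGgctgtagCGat
Zfp746: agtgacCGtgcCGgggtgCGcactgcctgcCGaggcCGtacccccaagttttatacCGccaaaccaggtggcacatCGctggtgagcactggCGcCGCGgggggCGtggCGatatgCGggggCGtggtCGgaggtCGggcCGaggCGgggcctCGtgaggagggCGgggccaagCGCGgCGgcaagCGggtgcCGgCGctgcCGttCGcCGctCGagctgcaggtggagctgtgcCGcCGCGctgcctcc
The 4 promoter stretches held 17, 24, 14 and 33 CpG dinucleotides, in the order Kcnj10, Stub1, Bpgm and Zfp746, beside a median of 6 over 27025 RefSeq promoters of the same length. The Ephb2 peak held 14 and the Nes peak 6.

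The cyproheptadine list had 33721 peaks over 32.5 Mb and the loxapine list 45564 peaks over 45.2 Mb. To compare lists of one size, all 33721 cyproheptadine peaks were set against the 33721 strongest loxapine peaks by the deposited score, which left 11843 weaker loxapine peaks out. The lowest score kept was 25 with loxapine and 10 with cyproheptadine. The equal-sized loxapine list still covered 38.9 Mb, and its median peak was wider (973 bp against 766 bp with cyproheptadine). Read totals were not used here, so depth is unknown, and strength was compared as the percentile of a peak within its own list. Of 11 markers of neural progenitors and striatal cells, 5 (Vim, Sox2, Sox9, Dlx2 and Foxp1) were marked in both lists, Nes and Pax6 with loxapine only, and 4 in neither. The Pax6 peak had a score of 28 at percentile 5.88, near the lowest score kept, and a cyproheptadine peak lay 2470 bp from the start. None of 10 genes of other tissues, such as Alb, Ins2 and Ptprc, was marked in either list (0 of 10).

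Nearly all strong peaks were held in common, and weak peaks less often. Of the cyproheptadine peaks, 28485 of 33721 overlapped a peak of the equal-sized loxapine list by at least 1 bp (84.5%, 95% Wilson interval 84.1% to 84.9%), and 83.8% of the loxapine peaks (83.4% to 84.2%) overlapped a cyproheptadine peak. These intervals describe counting error alone, and peaks near each other do not count as separate draws. Among the strongest 10000 peaks of each list, 99.8% and 99.9% were found in the other list, with cyproheptadine given first. The shares were 97.3% and 94.9% for the next 10000, and 64.0% in both lists for the rest. Cyproheptadine peaks without a loxapine counterpart had a median score of 15 against 49 for those with one, and a median width of 390 bp against 877 bp. The same was seen for loxapine, with scores of 33 and 74 and widths of 463 and 1113 bp. The Jaccard index, the base pairs held by both lists over those held by either, was 0.669. When all 45564 loxapine peaks were allowed as partners, 91.7% of the cyproheptadine peaks were found.

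**Figure D1:**
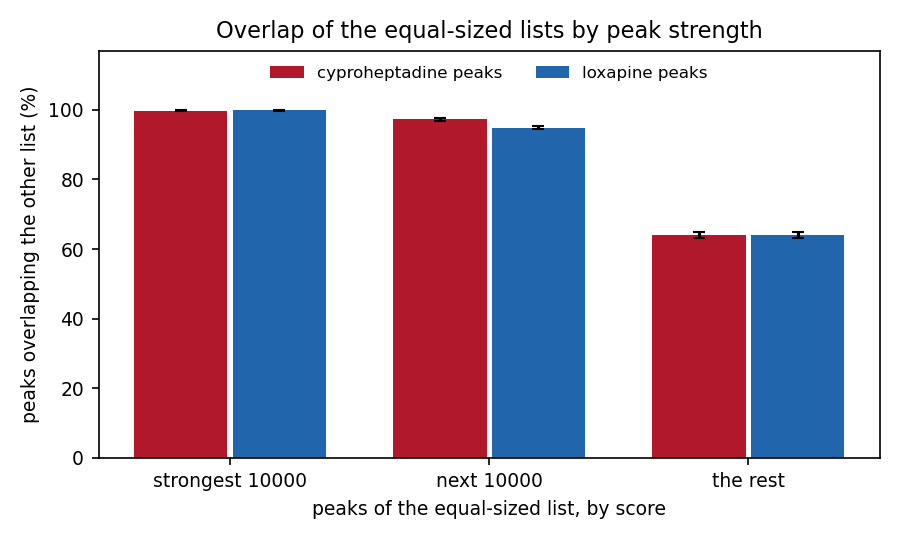
Share of peaks of each equal-sized list that overlapped a peak of the other (%), for the strongest 10000 peaks, the next 10000 and the rest, by deposited score. Bars are cyproheptadine (red) and loxapine (blue), and error bars are 95% Wilson intervals. The shares lie above 94% in the first 2 bands and at 64.0% in the rest.

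Fewer peaks were held in common away from genes' starts, where peaks were also weaker. Median scores near a start, within genes and between genes were 73, 27 and 27 with cyproheptadine and 98, 48 and 48 with loxapine. The part of strength in these shares was not tested. Peaks within 1 kb of the start of any annotated gene made up 42.1% of the cyproheptadine list and 42.7% of the equal-sized loxapine list, and 96.1% and 94.6% of them were found in the other list. Peaks within genes but farther from a start were found in 77.8% and 76.4% of cases, and peaks between genes in 73.7% and 74.96%. Peaks near a start made up 10.5% of the cyproheptadine peaks and 14.3% of the loxapine peaks that had no counterpart.

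Most protein-coding promoters carried the mark after both compounds. A gene counted as marked if any peak came within 1 kb of one of its GENCODE starts, and the strongest such peak gave the promoter its percentile. Of 21911 genes, 12128 were marked with cyproheptadine, 12252 with loxapine and 11949 with both. The percentiles of these 11949 promoters ran in nearly the same order in both lists (Spearman's rho 0.903 across promoters, which share 2 lists and are not independent). The difference, loxapine minus cyproheptadine, had a median of -0.95 points and an SD of 9.62 points, and 9302 promoters (77.8%) lay within 10 points. At a distance of 20 points or more, 498 promoters (4.17%) stood higher with cyproheptadine and 177 (1.48%) stood higher with loxapine. The promoters nearest the limit differed by -20.0128 and -19.9979 points on one side and by 20.0098 and 19.9979 on the other.

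**Figure D2:**
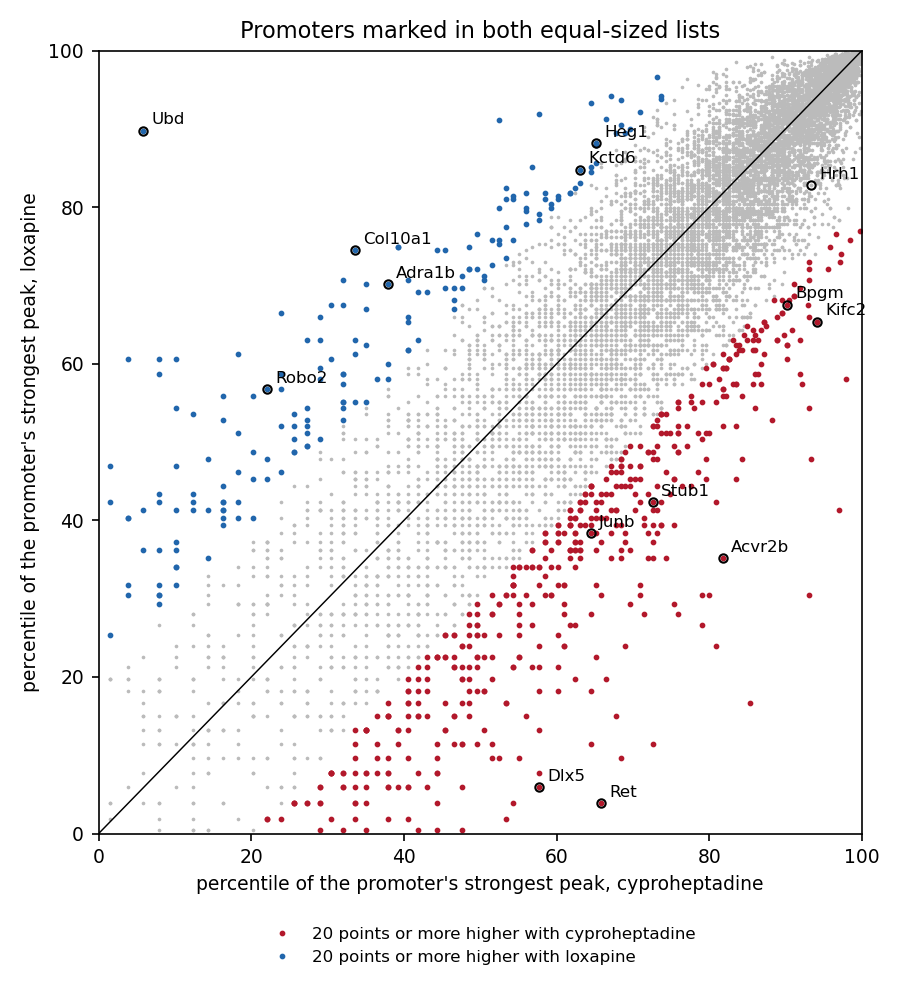
Percentile of each promoter's strongest peak in the cyproheptadine list (x axis) and in the equal-sized loxapine list (y axis) for the 11949 protein-coding promoters marked in both. Red points (498) are 20 points or more higher with cyproheptadine, blue points (177) 20 points or more higher with loxapine, the line marks equal percentiles and open circles mark named genes. The points close in on the line towards the top right, where percentiles leave less room to differ.

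In percentile points, the spread between the compounds was smallest at strongly marked promoters. Percentiles have an upper limit, so differences have less room there, and the part of this limit in the spread was not tested. Where the mean of both percentiles was 75 or more, the SD of the difference was 5.99 points, and 0.559% of 6980 promoters were 20 points higher with cyproheptadine and 0.229% with loxapine. Between the 25th and the 50th percentile the SD was 16.6 points and the shares were 16.4% and 6.49% of 1186 promoters, and below the 25th the SD was 17.0 points and the shares 21.1% and 7.14% of 280 promoters.

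The excess towards cyproheptadine depended on the measure. The loxapine peak was the wider one at 85.04% of promoters marked in both and at 90.0% of the 498, while it was wider at 67.8% of the 177. Percentiles taken only among the promoters marked in both gave 670 promoters higher with cyproheptadine and 647 with loxapine. A measure that sums score times width over the peaks in the window, chosen after the data were seen, gave 351 and 397. Of the promoters 20 points apart, cyproheptadine was thus the higher in 73.8%, 50.9% and 46.9% by the respective measures. With whole lists, in place of equal-sized ones, the counts were 63 and 685. By score and by score times width together, 61 promoters stood 20 points higher with cyproheptadine and 16 with loxapine. In equal-sized lists, the direction was the same wherever each alternative gave a value at 343 of the 498 and 151 of the 177 promoters. These alternatives were ranks among promoters marked in both, score times width, the sum of scores, peaks merged within 1 kb, and windows of 0 and 5 kb. All of them use the peak scores that chose the promoters, so agreement was partly built in. Whole lists and shorter equal-sized lists were not among them.

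**Figure D3:**
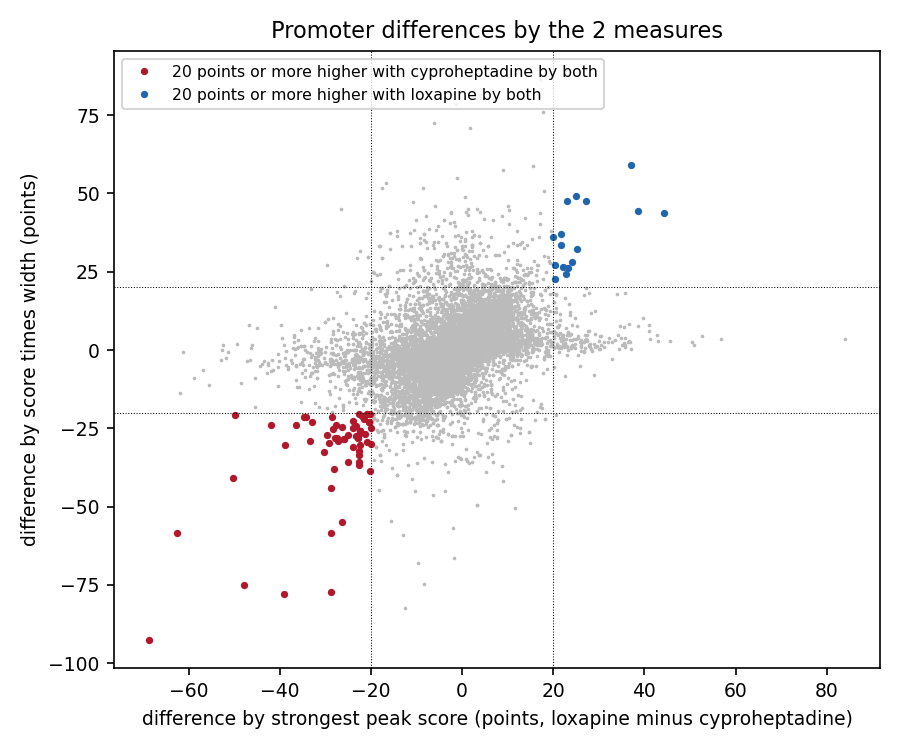
Difference between loxapine and cyproheptadine in percentile points for the 11949 promoters marked in both, by the score of the strongest peak within the list (x axis) and by score times width summed over the window and ranked among these promoters (y axis). Dotted lines mark 20 points, and coloured points are the 61 promoters (red, cyproheptadine) and 16 promoters (blue, loxapine) past them by both measures.

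Promoters that stood higher with cyproheptadine by both measures, and whose direction held in equal-sized lists under the measures, merging and windows of 0 and 5 kb, were 51, and the genes named from them were chosen after their values were seen. Stub1, the ubiquitin ligase CHIP that pairs chaperones with protein degradation, had a peak over its start (chr17:25831889-25834118) with a score of 71 at percentile 72.6 with cyproheptadine, and a score of 55 at percentile 42.4 with loxapine. Bpgm, bisphosphoglycerate mutase of the red-cell branch of glycolysis, lay at 90.2 and 67.6 (scores 112 and 90). Cpox, coproporphyrinogen oxidase of haem synthesis, lay at 85.7 and 63.0. Peaks at all these starts overlapped between the lists, so that the same region was ranked differently. Coq8b, a kinase-like protein of coenzyme Q synthesis, stood at 86.8 and 64.3, and Rab11fip1, an effector of Rab11 in endosome recycling, at 74.3 and 46.2. One peak served both Kifc2, a kinesin, and its neighbour Cyhr1, at 94.1 and 65.4. Cdc14b, a phosphatase of the cell cycle, had a score of 123 at percentile 93.2 with cyproheptadine and 69 at 54.4 with loxapine.

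By the score alone, the 10 largest differences towards cyproheptadine lay at genes of varied roles. Ret, the receptor tyrosine kinase for GDNF-family ligands, had a score of 60 at percentile 65.8 with cyproheptadine and 27 at 3.92 with loxapine, and both peaks were 1044 bp wide. Hs6st1, a heparan sulphate 6-O-sulphotransferase, lay at 68.4 and 9.63. The peak with loxapine was wider there (2268 against 1069 bp), and the difference by score times width was -8.95 points. Prss36 (72.6 and 11.4), Asmt (64.5 and 11.4) and Ninj2 (67.8 and 14.96) were also far apart by score but differed by -0.65, -3.25 and -0.12 points by score times width. Tbp, the TATA-binding protein, which shares its cyproheptadine peak with the proteasome gene Psmb1, turned to 1.75 points towards loxapine by that measure. Ank1 (97.0 and 41.4) and Scfd2 (80.9 and 24.0) completed these 10 genes, together with D11Wsu47e and App. D11Wsu47e lay at 85.3 and 16.6, but at 10.97 points towards loxapine with merged peaks and 10.8 with a window of 5 kb, which also turned Scfd2 to 3.62 points. App, the amyloid precursor protein, lay at 93.2 and 30.5. There the lists' strongest peaks did not overlap, and with a window of 5 kb the difference was 0.39 points.

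In equal-sized lists fewer promoters stood higher with loxapine by score, which whole lists and score times width turned. The 11 that stood higher by both measures and held their direction in the same way had loxapine peaks over or near starts of genes with varied cellular roles. Zfp746, a KRAB zinc finger repressor, had a score of 63 at percentile 67.8 with cyproheptadine and 148 at 89.5 with loxapine, with peaks of 1695 and 1808 bp over one start (chr6:48085230-48087037 with loxapine). Heg1, a transmembrane partner of the CCM complex in endothelial junctions, lay at 65.2 and 88.2. Kctd6, an adaptor of cullin ubiquitin ligases, was at 63.0 and 84.8, and Ppp3cc, a catalytic subunit of calcineurin, at 53.3 and 77.4. Col3a1, a fibrillar collagen, stood at 64.5 and 84.5. Sfi1, a centrosomal protein, lay at 52.5 and 91.1 (scores 43 and 155). The others included Cyth2 (69.7 and 90.1), an exchange factor for Arf proteins, and Ap5z1 (65.2 and 87.9), of the AP-5 adaptor.

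The 10 largest score differences towards loxapine, Pde4a apart, lay at narrow peaks (307 to 785 bp with loxapine) that were weak with cyproheptadine. Ubd, the ubiquitin-like modifier FAT10 that is induced by interferon, differed most. The peak in its intron (chr17:37194656-37194962 with loxapine) had a score of 149 at percentile 89.8 with loxapine and 12 at 5.78 with cyproheptadine. DKI had no peak within 1 kb of its start, and meclizine had one with a score of 76. Klk10, a kallikrein, stood at 3.797 with cyproheptadine and 60.6 with loxapine, C1rl, a complement protease, at 7.93 and 60.6, and Epcam, an epithelial adhesion molecule, at 10.1 and 60.6. Shank2, a scaffold of excitatory synapses, had scores of 21 and 88 and lay at 23.9 and 66.5. The remaining genes were Nipsnap1, Lrrc32, Nrap and Lrrc2, which differed by 41.3 to 50.8 points, and Pde4a, a cAMP phosphodiesterase, whose strongest peaks lay at different starts. With a window of 5 kb Pde4a turned to -5.81 points, towards cyproheptadine. By score times width the differences at these 10 genes, Pde4a apart, were between 1.55 and 4.89 points.

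Promoters marked in one equal-sized list only numbered 179 with cyproheptadine (0.817% of the 21911 genes) and 303 with loxapine (1.38%). Stricter lists turned this order, with 483 and 247 at the strongest 20000 peaks and 898 and 467 at the strongest 10000. What follows is for the 179 and 303. They were weakly marked, with median percentiles of 16.3 and 18.2, and 10 and 28 of them reached the 50th percentile. Of the 179, 119 had a loxapine peak that fell among the 11843 left out. Others lay at the edge of the window. The strongest were Hoxc12, a homeobox gene, whose cyproheptadine peak was at percentile 92.7 and whose nearest loxapine peak lay 1013 bp from a start, and Hcrt, the hypocretin precursor, whose loxapine peak was at 93.4 and whose nearest cyproheptadine peak lay 1012 bp away. Twist2, Thbd, Lonrf1, Slain1 and Cxcl17 had a loxapine peak within 1264 bp, and Zfp704, Stkld1, Igf1r, Ltbp4, Hrct1, Sdhaf1 and Adgrv1 had a cyproheptadine peak within 1224 bp. When peaks of the other equal-sized list were excluded to 5 kb, 122 promoters marked with cyproheptadine and 221 marked with loxapine were left.

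The strongest loxapine-only promoters without a cyproheptadine peak within 5 kb belonged to genes of varied roles. At any strength, single-list promoters under this rule were 221 with loxapine and 122 with cyproheptadine, of 21911 genes. In the same order they were 2 and 1 of 34 striatal and neuronal genes and 4 and 2 of 165 channel genes. They were 8 and 2 of 361 solute carriers, 3 and 3 of 154 homeobox genes and 4 and 11 of 1418 olfactory and vomeronasal receptors. Of the 221, Ephb2, which acts in axon guidance and at synapses, had the strongest peak (score 119, percentile 80.7, 239 bp wide). The nearest cyproheptadine peak was 27248 bp from its start. Nes had a score of 73 at percentile 57.4. Kcnj10, the Kir4.1 potassium channel of astrocytes, had a peak of 491 bp over its start with a score of 67 at percentile 52.8. Rgs9, a regulator of G-protein signalling that is abundant in striatal neurons, had a peak over its start (chr11:109297783-109298189, exon and intron) with a score of 63 at percentile 49.6. The nearest cyproheptadine peaks lay 9864, 28283 and 14253 bp from the starts of Nes, Kcnj10 and Rgs9. Hcn2, a pacemaker channel, stood at 45.3, Ntng1, netrin-G1, at 44.4 and C1ql1, a secreted synaptic protein, at 47.8. Fsd1, a microtubule-binding protein, lay at 74.0, Tfr2, a transferrin receptor, at 67.6 and Enho, the peptide hormone precursor adropin, at 54.4. Pcdhga7, H2-Q7, Naip2, Apol10b and Vmn2r60 were also among the 20 strongest, and belong to multigene families in which reads of similar copies can be misplaced. Of the 221 promoters, 188 (85.1%) were marked in the meclizine list and 101 (45.7%) in the DKI list. Of the 122 promoters marked with cyproheptadine only under the same rule, 86 (70.5%) and 58 (47.5%) were. Whole meclizine and DKI lists were used here and were not cut to one size, so these shares are not on one footing.

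In the lists of 33721 peaks, fewer promoters marked with cyproheptadine only reached the 50th percentile (10 against 28). Stricter equal-sized lists held more promoters marked with cyproheptadine only than with loxapine only. The strongest with a weaker loxapine peak was Oasl1, an interferon-induced gene of the 2'-5' oligoadenylate synthetase family. Its cyproheptadine peak (chr5:114922327-114922967, 641 bp, 273 bp upstream of the start) had a score of 108 at percentile 88.9, while the loxapine peak had a score of 22 and fell below the equal-sized list. DKI had a peak there with a score of 85 and meclizine one with a score of 27. Gpr39, a zinc-sensing receptor, Pax2, a paired-box factor, Fam20c, a kinase of secreted proteins, and Hoxb8 had cyproheptadine scores of 47, 43, 43 and 38 and loxapine scores of 24, 24, 21 and 17. Promoters with no peak of the whole loxapine list within 5 kb were 36, at a median percentile of 5.78. Ropn1 (53.3), Aifm3 (39.2) and the interferon-inducible gene Ifi202b (35.0) led them. Penk, the enkephalin precursor that marks striatal projection neurons of the indirect pathway, had a peak of 367 bp over its start with a score of 11 at percentile 3.797, and the nearest loxapine peak was 40389 bp away.

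Receptors that these drugs bind were mostly unmarked. Of 37 genes for monoamine, histamine and muscarinic receptors, 29 had no peak within 1 kb of a start in either list. Hrh1, the histamine H1 receptor that cyproheptadine blocks, was the most strongly marked, with scores of 124 and 125 that gave percentiles of 93.4 with cyproheptadine and 82.8 with loxapine. The alpha-1B adrenergic receptor gene Adra1b lay at 37.9 and 70.2 and the beta-1 adrenergic receptor gene Adrb1 at 40.6 and 66.0, the 2 of 5 members marked in both that were 20 points apart (beside 4.17% and 1.48% of all promoters). By score times width they differed by 3.78 and -1.42 points. Adra2a (47.6 and 48.7) and Adrb3 (7.93 and 3.92) were close. Htr1b was marked with cyproheptadine only, at a score of 15 beside a loxapine score of 22, and Htr1d with loxapine only. The cyproheptadine-only call at Htr1b follows from the lowest score kept with loxapine, 25.

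Axon guidance and channel genes lay apart in both directions, at levels of the mark where many promoters did. Over all promoters with a mean percentile of 25 to 50, 16.4% were higher with cyproheptadine and 6.49% with loxapine, and 5.85% and 1.83% at 50 to 75. Of 55 axon guidance and protocadherin genes marked in both, 7 stood 20 points higher with cyproheptadine and 7 with loxapine (12.7% each, beside 4.17% and 1.48% of all promoters), and the list's median difference was -4.94 points beside -0.95 for all promoters (5.74 beside 3.498 with whole lists). Slit2, a repellent for growing axons, lay at 57.7 and 21.2, at strongest peaks that did not overlap. Sema6b lay at 37.9 and 1.89, and turned to 3.09 points towards loxapine by score times width. Robo2, a receptor for Slit proteins, was on the other side at 22.04 and 56.7, as was Epha7, an ephrin receptor, at 29.0 and 58.1. Ephb2, Pcdhga7, Sema4f, Sema4g and Robo3 were marked with loxapine only, and Plxnc1 with cyproheptadine only. Among 38 potassium, sodium and calcium channel genes, 7 were higher with cyproheptadine and 2 with loxapine (18.4% and 5.26%, beside 4.17% and 1.48%). Cacna1b, the N-type calcium channel, lay at 70.9 and 30.5 and Kcnn3 at 65.8 and 30.5. Hcn2, Kcnj10, Kcnk13, Kcnn1 and Trpv3 were marked with loxapine only and Kcnmb4 with cyproheptadine only.

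Of 7 glutamate and GABA receptor genes marked in both, 4 were higher with cyproheptadine and 1 with loxapine, beside 4.17% and 1.48% of all promoters, and the median difference was -22.4 points. Gabbr1 lay at 46.5 and 14.96, Glrb, of the glycine receptor, at 79.5 and 51.2, and Gabrb2 ran the other way at 27.4 and 51.2. By score times width Gabbr1 and Glrb turned to 2.80 and 6.13 points towards loxapine. The median was -0.46 points by score times width and -0.81 with whole lists. Grik4 was marked with loxapine only. Among 9 striatal and neuronal genes marked in both, Syt1, the calcium sensor of synaptic vesicles, lay at 70.9 and 92.1, and the list's median difference was 0.30. Bdnf (79.1 and 73.1), Pde10a (48.6 and 43.4), Foxp1 (76.0 and 78.8) and Rest (98.8 and 99.1) were close. Rgs9 and Syn1 were marked with loxapine only and Penk with cyproheptadine only. Syn1 had a score of 25, the lowest kept with loxapine, at percentile 0.42. Among the 5 progenitor markers marked in both, Vim lay at 56.9 and 39.4. Dlx2 lay at 36.5 and 14.96, but differed by 4.87 points with a window of 5 kb and by 0.58 with whole lists, both towards loxapine.

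Homeobox transcription factors, which set regional identity in the embryo, ranked lower with loxapine in equal-sized lists but not in whole lists. Of 60 marked in both, 9 stood 20 points higher with cyproheptadine and 0 with loxapine (15% and 0%, beside 4.17% and 1.48% of all promoters), and 40 had the lower percentile with loxapine, as did 56.98% of all promoters. The median difference was -5.28 points. Promoters of like strength were similar, with medians of -5.50 and -3.39 points and 16.4% and 5.85% higher with cyproheptadine at mean percentiles of 25 to 50 and 50 to 75. Percentiles among promoters marked in both gave a median of -0.60, and whole lists gave 6.13, above the median of all promoters there (3.498). Dlx5, a factor of forebrain interneurons, lay at 57.7 and 5.88 and Hoxa2 at 54.2 and 21.2. Pbx2 was at 65.8 and 80.7. Marks in 1 list were split, with 7 of 154 in cyproheptadine only and 6 in loxapine only, beside 0.817% and 1.38% of all genes. The 7 included Hoxc12, Hoxb8, Pax2 and Msx2, and the 6 were En2, Hoxa9, Lhx8, Nkx2-2, Pax6 and Pou3f2. In the Wnt and TGF-beta list, 6 of 63 were higher with cyproheptadine and 2 with loxapine (9.52% and 3.17%, beside 4.17% and 1.48% of all promoters). Over all promoters at mean percentiles of 50 to 75 the shares were 5.85% and 1.83%. The list's genes 20 points apart included Id3 (64.5 and 28.0), Wnt1 (20.2 and 48.7) and Tcf7 (25.6 and 53.6). By score times width Wnt1 turned to -0.40 points.

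Immediate early genes, which respond first to growth factor and calcium signals, ranked lower with loxapine in equal-sized lists and, relative to all promoters, in whole lists. Of 25 marked in both, 20 had the lower percentile with loxapine, against 56.98% of all promoters, with a median difference of -6.77 points, and 3 stood 20 points higher with cyproheptadine (12%, beside 4.17% of all promoters). Promoters with a mean percentile of 50 to 75 had a median of -3.39 points and 5.85% higher with cyproheptadine. Junb lay at 64.5 and 38.4, Ier2 at 41.8 and 18.2, and Zfp36, an mRNA decay factor, at 30.4 and 7.79. Egr1 was at 70.3 and 58.1, Fos at 62.4 and 55.1 and Myc at 61.0 and 44.4, while Jund was at 79.5 and 90.1. The list's median stayed below 0 by score times width (-6.96 points) and among promoters marked in both (-3.59) and was 1.90 with whole lists, below the median of 3.498 for all promoters. By score times width Junb turned to 5.62 points towards loxapine, where its strongest peak was 2612 bp wide against 964 bp, and Jund to -0.85. In the ERK cascade, 1 of 34 promoters was higher with each compound (2.94%, near the 4.17% and 1.48% of all promoters), Egfr at 60.2 and 38.4 and Braf at 63.0 and 83.1.

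Metabolic and stress genes differed little in percentile. At a mean percentile of 75 or more, where percentiles leave less room, 0.559% of all promoters were higher with cyproheptadine and 0.229% with loxapine. The glycolytic list lay lower, at medians of 67.1 and 62.4, and at 50 to 75 these shares were 5.85% and 1.83%. No promoter among 37 lysosomal, 31 sterol, 76 respiratory chain, 27 glycolytic, 30 stress response and 30 antioxidant genes marked in both was 20 points apart, and the medians were 0.82, -2.24, 0.94, -2.59, -1.75 and -1.22 points. Among the most distant of them were Abcg1 (57.7 and 72.1), Uqcrfs1 (70.3 and 85.9), Slc16a3 (32.0 and 51.2), Vldlr (29.0 and 9.63) and Ftl1 (61.0 and 44.4). Of 39 autophagy genes, Atg4d, a protease that processes the ATG8 proteins, lay at 82.6 and 60.6, and Tfeb, the regulator of lysosomal genes, at 63.0 and 47.0. The autophagy median was -0.32 points. Among 32 caspase and Bcl2 family genes, Casp4 lay at 85.7 and 64.3 and Bik at 29.0 and 66.0, and Casp14 was marked with loxapine only.

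Matrix genes held some of the widest differences. Of 60 collagen, integrin and matrix promoters, 8 were higher with cyproheptadine and 6 with loxapine (13.3% and 10%, beside 4.17% and 1.48% of all promoters). Loxl1, a lysyl oxidase that cross-links elastin, lay at 54.2 and 3.92, although its difference was 3.20 points with a window of 5 kb. Col7a1 stood at 75.4 and 39.4, with 0.91 points towards loxapine by score times width, and Col10a1, of growth-plate cartilage, at 33.5 and 74.5. Col23a1 was at 39.2 and 74.9. Lox was marked with loxapine only, where the nearest cyproheptadine peak was 1252 bp away, and Itga2 with cyproheptadine only, at a score of 16 beside a loxapine peak of 24 that fell below the lowest score kept. Among 97 actin, tubulin and motor genes, 5 were higher with cyproheptadine and 1 with loxapine (5.15% and 1.03%), among them Map1b (51.5 and 19.8) and Kif21a (55.96 and 79.97). Of 57 interferon and cytokine genes, 3 were higher with cyproheptadine and 0 with loxapine, near the share of all promoters (5.26% and 0%). Il17d lay at 50.6 and 18.2, with 3.99 points towards loxapine by score times width, and Ifit1 at 63.7 and 43.4. Of 133 such genes, 5 on each side were marked in 1 list (beside 0.817% and 1.38% of all genes), Oasl1, Ifi202b, Il11, Il34 and Cxcl17 with cyproheptadine and Mx1, Ccl5, Ifi47, Ifi207 and Tlr12 with loxapine. Il34 had a score of 13 with cyproheptadine and a loxapine peak of 16 that was left out.

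In larger families the counts 20 points apart can be read against 4.17% and 1.48% of all promoters. The counts higher with cyproheptadine and with loxapine were 8 and 3 of 190 solute carriers, 11 and 3 of 332 Zfp zinc finger genes, 5 and 0 of 155 ribosomal protein genes, 2 and 0 of 118 proteasome and chaperone genes, 2 and 1 of 36 cell cycle and p53 genes and 3 and 0 of 55 genes of histone methylation. Slc12a5, the neuronal chloride exporter KCC2, lay at 3.797 and 40.4 and Ccne1 at 68.4 and 39.4. Solute carriers marked in 1 list were 3 with cyproheptadine and 9 with loxapine, of 361 (0.817% and 1.38% of all genes were). Ring1, of the Polycomb complex, lay at 33.5 and 3.92, and Hspa4 at 76.5 and 95.3. Among 72 histone genes, 7 were higher with cyproheptadine and 1 with loxapine, but several share a peak in the clusters, and Hist1h3i turned from -46.2 to 1.65 points by score times width. Of 1418 olfactory and vomeronasal receptors, 1397 were unmarked, 12 were marked with cyproheptadine only, 5 with loxapine only and 4 in both, and these single-list counts lay near or below the same shares of all genes. Of the 29 list medians, 23 lay below 0 and 19 below the median of all promoters, against 1 and 10 with whole lists.

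**Figure D4:**
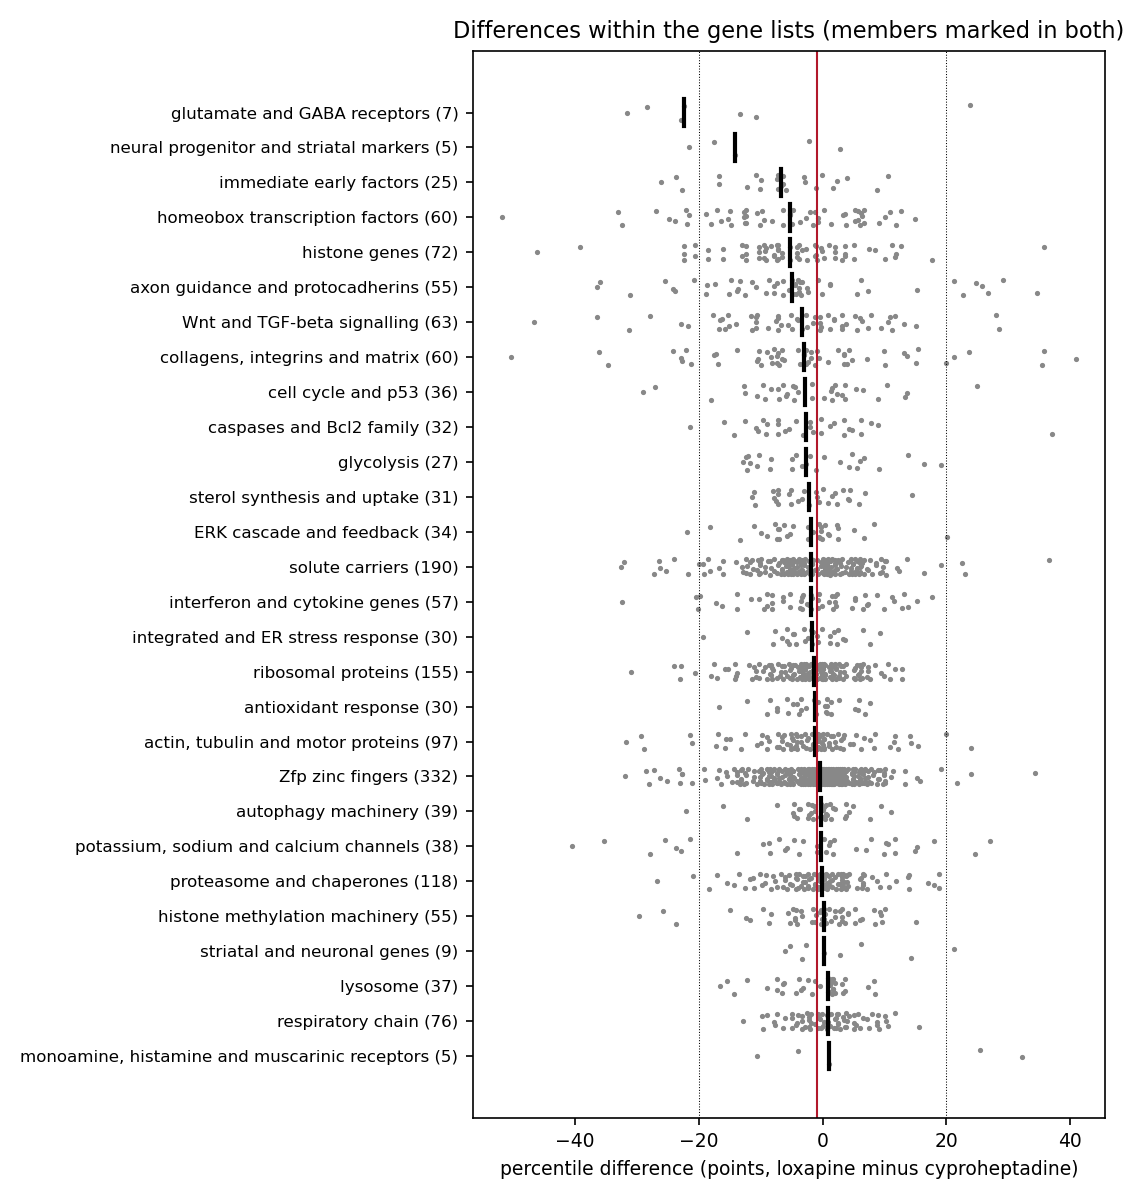
Percentile difference in points (loxapine minus cyproheptadine, x axis) for members of each gene list with at least 5 promoters marked in both (number in parentheses). Grey points are genes, black bars the list medians, the red line the median of all 11949 promoters (-0.95) and dotted lines 20 points. The medians of immediate early, homeobox and histone genes lie left of the red line, and those of metabolic lists lie within 2 points of it.

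Promoters 20 points apart by score, and those marked in 1 list, were poorer in CpG, while those apart by both measures were not. The median ratio of observed to expected CpG in the 1 kb around the start was 0.741 for promoters marked in both, 0.696 for those higher with cyproheptadine and 0.586 for those higher with loxapine. It was 0.506 for promoters marked with cyproheptadine only and 0.470 with loxapine only. The 61 and 16 promoters apart by both measures had medians of 0.735 and 0.758. Promoters marked in 1 list also had weaker peaks, and the part of peak strength in this order was not tested.

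**Figure D5:**
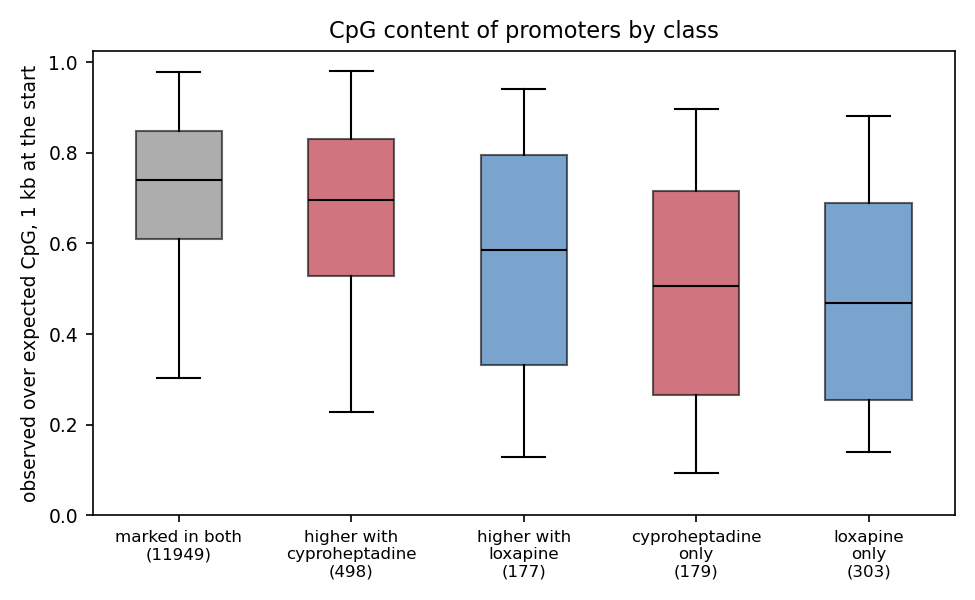
Observed over expected CpG in the 1 kb around the start (y axis) for promoters marked in both lists, 20 points or more higher with either compound, or marked in one equal-sized list only (number of promoters in parentheses). Boxes are quartiles with the median, and whiskers run from the 5th to the 95th percentile. The medians fall from 0.741 to 0.470 from left to right.

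The place of cyproheptadine and loxapine among the pairs of compounds depended on the measure. With the 30758 strongest peaks of each list, 763 promoters (6.46% of those marked in both) were 20 points apart between cyproheptadine and loxapine. The share was 5.85% between DKI and meclizine, 6.21% between cyproheptadine and meclizine, 6.82% between cyproheptadine and DKI, 8.34% between loxapine and meclizine and 10.3% between loxapine and DKI. Ranked among promoters marked in both, the tricyclic pair had the smallest share of the 6 pairs, 11.6% against 14.7% to 19.7%. Its Jaccard index was 0.688, in a range of 0.638 to 0.704. The pairs share lists. At 428 promoters higher with cyproheptadine that were marked in all 4 lists at that size, the median percentile was 62.9 with cyproheptadine and 33.5 with loxapine, while DKI (52.6) and meclizine (51.7) lay between them. These promoters were chosen for the difference between the tricyclics, so a list between them follows from the choice. At 145 higher with loxapine, cyproheptadine had 33.4, loxapine 64.4, DKI 47.0 and meclizine 57.01.

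The strongest peak differed in width at some strongly marked promoters. Among 5923 promoters at or above the 75th percentile in both lists, the log2 ratio of loxapine to cyproheptadine width had a median of 0.12 and an SD of 0.33. At Micall1 (292 bp with cyproheptadine and 2917 bp with loxapine), Kansl1 (236 and 1951 bp), Cdc34 (262 and 1948 bp), Psmb1 (222 and 2077 bp) and Sik3 (2292 and 251 bp) the strongest peaks of the lists did not overlap. At Fkbp4 (1916 and 310 bp), Nup98 (2515 and 589 bp), Naa15 (2798 and 667 bp) and Nfatc3 (2970 and 734 bp) they overlapped, and loxapine had 2 peaks near the starts where cyproheptadine had 1. At Pcm1, a centrosomal protein, cyproheptadine had 2 peaks, the stronger of 428 bp, and loxapine 1 of 2989 bp.

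Peaks more than 5 kb from any start also separated the lists, and strength was not matched. Their median widths were 559 bp with cyproheptadine and 762 bp with loxapine, against 766 and 973 bp in the equal-sized lists. Of 15308 such cyproheptadine peaks, 2071 (13.5%, 13.0% to 14.1%) overlapped no peak of the whole loxapine list, and of 15204 in the equal-sized loxapine list, 3755 (24.7%, 24.0% to 25.4%) overlapped no cyproheptadine peak. The larger loxapine list offered more partners, so these shares are not on one footing. The strongest cyproheptadine peak of this kind had a score of 213 at percentile 99.6 (chr17:4626064-4626650, between genes, with the start of Arid1b nearest at 367682 bp), and overlapped no DKI or meclizine peak. The next lay nearest Sulf1 (score 174), Ly75 (140), Dpp9 (137) and Rdh14 (133), and of the 5 only the peak nearest Rdh14 overlapped another compound's peak, in the DKI list. The strongest loxapine peaks were nearest Elovl4 (chr9:83727206-83727696, score 120), Tmem121 (120), Zfp60 (115), Rbms3 (110) and Tns1 (105), and each overlapped a meclizine peak.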

How the data were processed

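H3K4me3 was measured in STHdhQ111 cells by ChIP-Seq with micrococcal nuclease digestion and single-end reads. Submitters' notes name Trimmomatic 0.36, Bowtie2, SAMtools 1.3, MACS2 and the mm10 build, and their settings, any input control and the scale of the score are not given in the sources used here. The authors deposited 1 peak list per condition with a whole-number score of at least 10 per peak. The series' design describes triplicate treatment, and pooling is not stated. Peak ends were compared with GRCm38 chromosome lengths, and 0 of 21 chromosomes had a peak past the end in either list.

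Lists were cut to 33721 peaks by score, ties wider first. A peak's percentile is its mid-rank. Promoters were protein-coding genes of GENCODE vM21 (21911 symbols, mitochondrial genes left out) with a peak within 1 kb of a start. No test was made. Scripts were tested on simulated lists. Members and lists were chosen with earlier results of these data known. Genes were named by a rule fixed with the design: 10 per direction by percentile difference, 10 per direction marked in 1 list without a window peak in the whole other list, the outer 2 per direction of each gene list past 10 points with its single-list members, 5 per direction by width and 5 distal peaks. Predicted and clone-named genes were left out. Genes that held their direction in equal-sized lists, had no peaks within 5 kb or had weaker loxapine peaks were added after the data were seen. List members less than 10 points apart were added in the same way. Some genes that this rule names are not reported here. Alternatives were whole lists, the strongest 20000 or 10000 peaks, merging, other windows, overlaps, ties, limits and measures. Python 3.11.15, numpy 2.4.6, pandas 2.3.3, pysam 0.24.0 and matplotlib 3.10.9 were used.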

Additional observations from a re-analysis of the deposited data

Results flagged for a closer look

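Peaks were listed on chromosome Y, 30 with cyproheptadine and 44 with loxapine, although the study's methods describe the line as female. Unplaced and unlocalised scaffolds held 74 peaks with cyproheptadine and 69 with loxapine. Both kinds of peak were counted in the lists and their overlap, but no result was given for them. Of the chromosome Y peaks, 2 and 3 lay within 1 kb of a protein-coding start, and the median scores were 26.5 and 28.5.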

How the results depend on the processing

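No paired analysis was possible because cyproheptadine and loxapine were each a single list, and for the same reason no replicate could be left out. The cause of no change below was tested. In the order whole lists, strongest 20000 and strongest 10000 peaks, the share of cyproheptadine peaks found was 91.7%, 86.9% and 85.03%, that of loxapine peaks 67.4%, 86.6% and 84.95%, and the Jaccard index 0.615, 0.714 and 0.689. A reciprocal overlap of 50% found 71.1% of either list. Promoters marked with cyproheptadine only were 60, 483 and 898 in the same order, 290 with a peak over the start and 284 within 5 kb. Those marked with loxapine only were 673, 247 and 467 in the same order, and 727 with a peak over the start. Promoters higher with cyproheptadine were 63, 908 and 1016 in that order, 1832 at 10 points, 140 at 30 points and 61 by both measures. Those higher with loxapine were 685, 369 and 738, then 109 with a peak over the start, 647 ranked among promoters marked in both, 633 by the sum of scores, 815 at 10 points, 47 at 30 points, 397 by score times width and 16 by both measures. The remaining counts stayed within 1.5 times. Whole lists moved the median of all promoters from -0.95 to 3.498 points.

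Of 976 recomputed differences of named genes, 27 changed direction where the gene had been at least 20 points apart. A further 276 crossed the limit of 20 points without such a turn, and by score times width 66 of 135 crossed it, 13 turned and 56 did neither. Changes of sign at smaller differences, such as Jund (-0.85 by score times width) and Abca1 (4.62), were not counted. The 27 turns were, by score times width, Adrb1 (-1.42), Col7a1 (0.91), Dync1li1 (10.1), Gabbr1 (2.80), Glrb (6.13), Hist1h3i (1.65), Il17d (3.99), Junb (5.62), Rps10 (3.96), Sema6b (3.09), Slc35b2 (2.89), Tbp (1.75) and Wnt1 (-0.40). Within 5 kb they were App (0.39), Arf6 (-9.49), Ccnd1 (-33.5), D11Wsu47e (10.8), Dlx2 (4.87), Galnt7 (16.7), Loxl1 (3.20), Pde4a (-5.81), Scfd2 (3.62) and Setd7 (-3.65). Merged peaks turned D11Wsu47e (10.97) and Hist2h2aa2 (12.8), whole lists Dlx2 (0.58), and a peak over the start Setd7 (-19.3). The score times width measure, both measures together and the exclusion to 5 kb were chosen after seeing the data. Read depth is unknown, and its part in these counts was not tested.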
